A study of Mus musculus with 54 samples.

Results

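The proteasome is the large protease that degrades ubiquitin-tagged proteins. Its 20S core is a barrel of alpha rings, which gate the entry, and beta rings, which hold the catalytic sites. A 19S cap with an ATPase ring and non-ATPase subunits recognizes, unfolds and feeds in the substrate. In immune cells and after interferon signalling the catalytic subunits Psmb5, Psmb6 and Psmb7 are replaced by Psmb8, Psmb9 and Psmb10 to form the immunoproteasome, which favours peptides for antigen presentation. The transcription factor Nfe2l1 raises the constitutive subunit genes when proteasome activity falls short.

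The members described here were the table entries whose name begins with Psm, a letter from a to g and a number, without pseudogene entries. The rule found 50 members of 20162 entries. Of these, 8 were alpha ring genes, 4 were non-catalytic beta ring genes, 3 were constitutive and 3 immunoproteasome catalytic genes, 6 were 19S ATPases, 11 were 19S non-ATPases, 7 were assembly chaperones and 6 were activators or inhibitors. The remaining 2 entries, Psmc3ip and Psme3ip1, matched by name only and are not subunits. The filter of a mean value of at least 1 kept 48 members. The untested ones were Psma8, an alpha subunit known from testis, with group medians of 0 to 0.886, and Psmc3ip, with group medians of 0 to 0.952.

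RNA was measured by 3′ mRNA sequencing of the medial liver lobe of 54 male C57BL/6J mice kept on a high-fat diet from an age of 8 weeks. The plasticizer DINP (diisononyl phthalate) was given daily for 20 weeks, at 1.5 mg/kg body weight to 13 mice, at 15 mg/kg to 13 and at 150 mg/kg to 14, and 14 control mice received none. All groups had the diet, so no group shows the liver without it. The question of each comparison was whether the dose moved proteasome gene expression. Values are length-scaled transcript abundances (TPM) as the authors rounded and rescaled them, and each sample summed to 747258 to 1076440. Because the deposited values hold no reads, the read depth behind a value is unknown. Fold changes are on the log2(value + 1) scale, with SE, and adjusted p-values are limma's with Benjamini-Hochberg adjustment over 11431 entries. A member was called at an adjusted p under 0.05. All cells of the lobe tissue were sequenced together, so fewer cells of a type and less RNA per cell cannot be told apart.

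The hepatocyte markers, Alb among them, summed to 26005 to 50802 per sample. The 11 leukocyte markers in the table summed to 12.6 to 84.2, with T and B cell markers Cd3e, Cd3g and Cd79a at means below 1. The 10 Kupffer cell and macrophage markers summed to 69.8 to 321, and the 8 endothelial and stellate markers to 183 to 421. At 15 mg/kg against control, Csf1r among the macrophage markers and Pecam1 among the endothelial markers were lower and Ttr among the 8 hepatocyte markers was higher, and at 150 mg/kg the hepatocyte marker Trf was lower by 0.19. Once the 8 libraries described next were left out, the first 3 of these calls were lost and that of Trf was kept. Their part in the results was not tested.

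A set of 8 libraries stood apart before any member was considered. On the first principal component of the tested entries other than members, which held 13.7% of the variance, they scored 25.3 to 52.9, and the other 46 scored at most 8.10. They were 6 of the 13 mice at 15 mg/kg (replicates 4 to 9), control replicate 1 and replicate 10 at 150 mg/kg. Mitochondrially encoded transcripts made up 8.58% to 11.3% of their totals and 10.3% to 16.5% in the others. The same 8 libraries held the 8 highest scores of the first component of the members, with 40.9% of the members' variance. No label names a batch. Since 6 of the 8 were in 1 dose group, whatever set them apart and that dose cannot be fully told apart, and most results at 15 mg/kg are given with and without them.

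**Figure D1:**
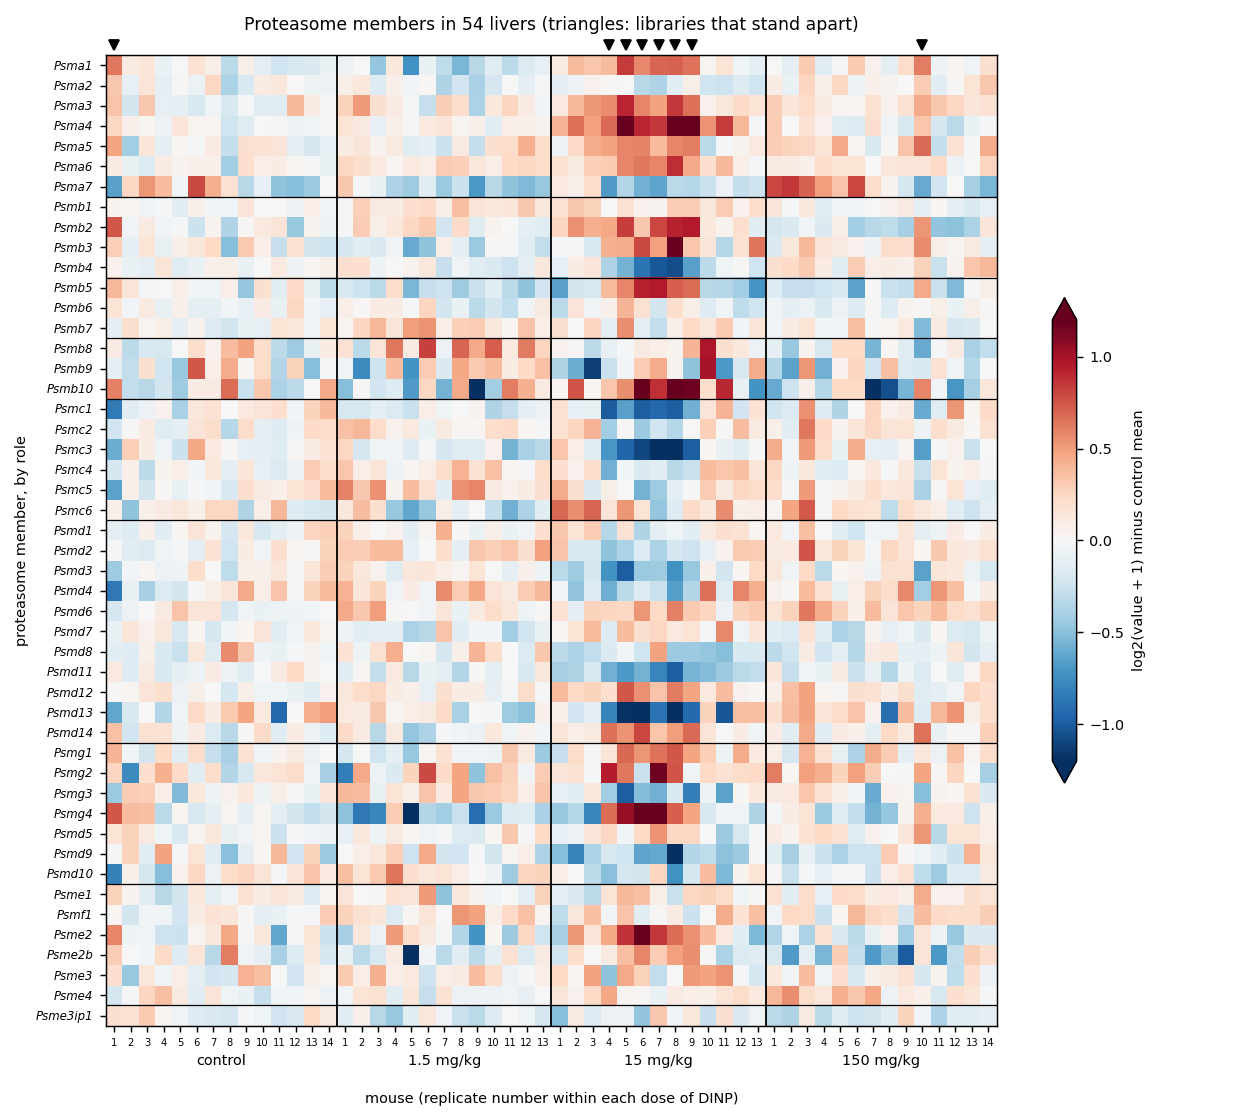
Each row is a tested member, grouped by role, and each column 1 of the 54 mice, with colour showing log2(value + 1) minus the control mean. Triangles mark the 8 libraries that stood apart. The columns of replicates 4 to 9 at 15 mg/kg carry the deepest colours, with 5 of the 7 alpha ring genes higher and Psmc1, Psmc3 and Psmd13 lower.

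At 15 mg/kg, 12 members were higher and 8 lower than in control. These were 25% and 16.7% of the 48 tested, against 7.57% and 6.61% of all tested entries called higher and lower. The median member difference was 0.10 on the log2 scale, beside -0.001 over all tested entries. Of the 12 higher members 8 were core genes, and of the 8 lower members 5 were cap genes. Without the 8 libraries 7 members were called (14.6%), against 5.31% of 11425 entries in either direction. Of the 12 higher members 2 remained, and of the 8 lower members 3 remained.

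Within the alpha ring, 5 of 7 tested genes were called higher at 15 mg/kg and none lower. Psma4, an alpha subunit of the core, was the member with the largest difference. Its control values ran from 60.4 through a median of 72.2 to 85.2, and at 15 mg/kg from 70.2 through 115 to 182. At 1.5 mg/kg they ran from 65.2 through 74.6 to 80.1 and at 150 mg/kg from 56.9 through 70.1 to 90.3. Of the mice at 15 mg/kg 12 of 13 lay above the highest control, while the other doses overlapped control almost fully. The difference at 15 mg/kg was 0.75 ± 0.09 (adjusted p = 9.4e-08), and 0.49 ± 0.08 without the 8 libraries (adjusted p = 5.2e-05). The 6 libraries at 15 mg/kg that stood apart ranged from 115 to 182 and the other 7 from 70.2 to 129. The 15 mg/kg and control mice therefore differed with and without these libraries. Some of the remaining mice at 15 mg/kg differed from control in another library trait, given with the base composition below.

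The gene spans positions 54950790 to 54958030 of chromosome 9 on the plus strand (GRCm38, GENCODE M21), and no other gene shares its exons on that strand. Below is the stretch before its start, chr9:54950727-54950789, as RefSeq gives it for GRCm38.p6. It is shown because Psma4 was the most raised member, and the capitals mark the ETS core CGGAAG, read on the opposite strand.
Psma4: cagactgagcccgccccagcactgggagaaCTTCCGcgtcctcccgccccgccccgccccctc

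Psma3 rose by 0.44 ± 0.08 (adjusted p = 0.00026), with all 13 mice above the control median of 76.7 and 8 above the highest control. Psma6 rose by 0.36 ± 0.07 (adjusted p = 0.00011), from a control median of 94.8 to 113. Psma1 and Psma5 rose by 0.36 ± 0.10 and 0.28 ± 0.10. These 4 differences were 0.26, 0.18, 0.17 and 0.10 without the 8 libraries, and none passed the threshold (adjusted p from 0.062 to 0.64). Psma7, the alpha gene with the highest values, did not pass at any dose, with differences of -0.30, -0.26 and 0.16 at 1.5, 15 and 150 mg/kg.

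Among the non-catalytic beta ring genes, Psmb1, Psmb2 and Psmb3 were higher at 15 mg/kg and Psmb4 was lower. Psmb1 moved least in size but most evenly. It ran from 92.2 through 99.8 to 112 in control, from 102 through 111 to 130 at 1.5 mg/kg, from 100.5 through 114 to 126 at 15 mg/kg and from 89.3 through 99.0 to 111 at 150 mg/kg. All 13 mice at 15 mg/kg and all 13 at 1.5 mg/kg exceeded the control median. The difference was 0.18 ± 0.04 at 15 mg/kg (adjusted p = 0.0031), and 0.22 ± 0.05 without the 8 libraries (adjusted p = 0.0056). With each sample scaled to the same total it fell to 0.13 (adjusted p = 0.087).

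Psmb2 ran from 37.3 through 51.4 to 87.3 in control and from 46.8 through 69.4 to 100.3 at 15 mg/kg. Its highest control value belonged to replicate 1, a library that stood apart. It rose by 0.44 ± 0.11 (adjusted p = 0.0032) with all mice and by 0.27 ± 0.09 without the 8 libraries (adjusted p = 0.082). Psmb3 differed by 0.32 ± 0.11 (adjusted p = 0.038) and without the 8 libraries by 0.08 (adjusted p = 0.71). Psmb4, the member with the highest mean value, ran from 541 through 604 to 667 in control and from 285 through 480 to 661 at 15 mg/kg. The 6 libraries at 15 mg/kg that stood apart ranged from 285 to 461, below every control, and the other 7 from 480 to 661. Psmb4 fell by 0.38 ± 0.09 on the log2 scale (adjusted p = 0.0033), and without the 8 libraries the value was -0.06 (adjusted p = 0.71). Control replicate 1 and replicate 10 at 150 mg/kg, at 620 and 722, were not low in Psmb4.

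**Figure D2:**
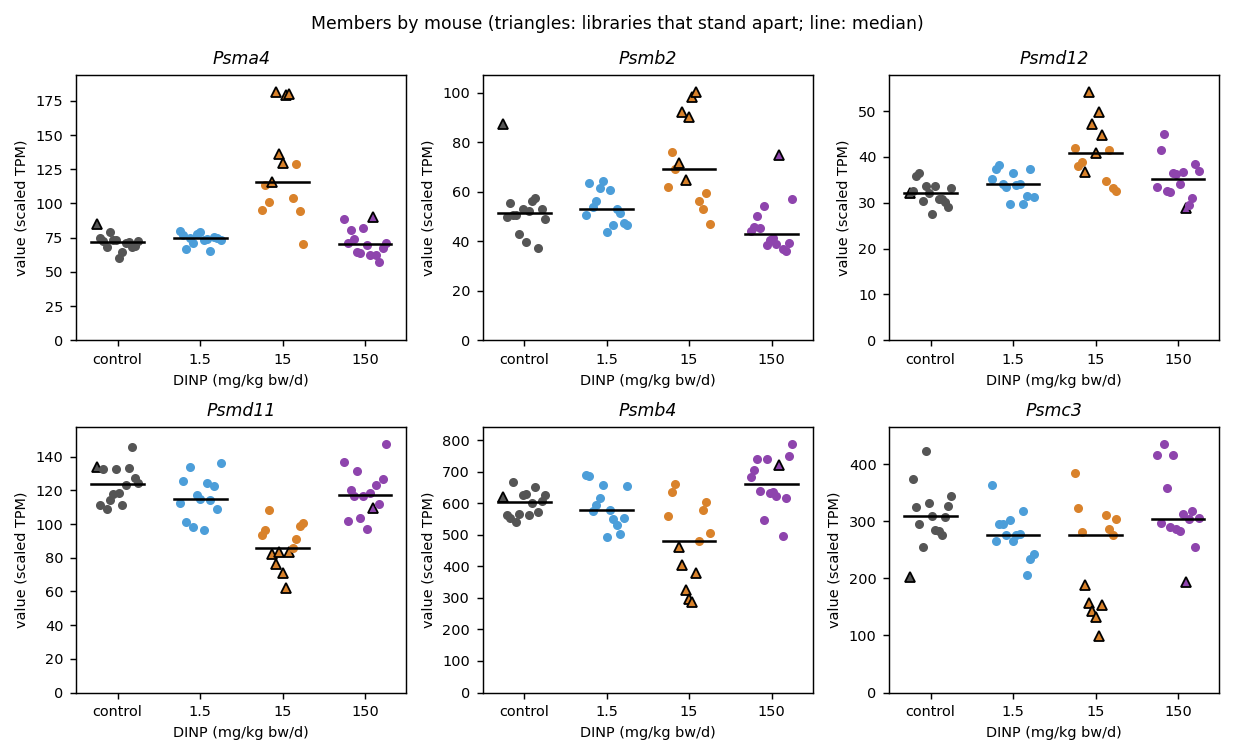
Each panel shows the value of a member (scaled TPM, axis from 0) in every mouse by DINP dose, with a line at the group median and triangles for the libraries that stood apart. For Psma4 and Psmd11 the other 7 mice at 15 mg/kg also lie mostly or wholly outside the control range, and for Psmb4 and Psmc3 the triangles alone lie below it at that dose, apart from 2 circles in Psmb4.

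In the 19S cap, 4 of 11 non-ATPase genes and 1 of 6 ATPase genes were lower at 15 mg/kg, and 3 non-ATPase genes were higher. Psmd11, a scaffold subunit of the lid of the cap, was the only member whose 15 mg/kg and control values did not overlap. Control ran from 109 through 124 to 146, and 15 mg/kg from 61.9 through 85.9 to 108, so that all 13 mice lay below the lowest control. The 1.5 mg/kg mice ran from 96.8 through 115 to 136 and the 150 mg/kg mice from 97.2 through 117 to 147, both overlapping control. Psmd11 fell by 0.51 ± 0.07 on the log2 scale (adjusted p = 6.0e-07). Without the 8 libraries it fell by 0.35 ± 0.07 (adjusted p = 0.0021), the 7 remaining mice running from 85.9 to 108.

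Psmd11 lies at positions 80428615 to 80473248 of chromosome 11 on the plus strand. The stretch before its start, chr11:80428574-80428614, is shown since it was the most clearly lowered member, with the same ETS core in capitals as in Psma4.
Psmd11: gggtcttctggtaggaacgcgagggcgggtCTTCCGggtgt

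Psmd13, another lid subunit, ran from 145 through 289 to 396 in control and from 96.5 through 160 to 361 at 15 mg/kg. It fell by 0.53 ± 0.17 (adjusted p = 0.027), and the value without the 8 libraries was -0.09 (adjusted p = 0.81). Psmc3, an ATPase of the ring, ran from 203 through 309 to 423 in control and from 98.4 through 277 to 384 at 15 mg/kg. The 6 libraries at 15 mg/kg that stood apart ranged from 98.4 to 188, and the other 7 from 277 to 384. The lowest control, replicate 1 at 203, and the lowest mouse at 150 mg/kg, replicate 10 at 193, were also libraries that stood apart. Psmc3 fell by 0.50 ± 0.14 (adjusted p = 0.012) with all mice, and without the 8 libraries the value was -0.04 (adjusted p = 0.89). Psmd3 fell by 0.35 ± 0.09 with all mice (adjusted p = 0.0053), and without the 8 libraries the value was -0.15 (adjusted p = 0.26).

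Psmd8, another lid subunit, was lower with and without the 8 libraries. It ran from 88.2 through 102 to 158 in control and from 74.4 through 86.8 to 150 at 15 mg/kg, where 11 of 13 mice lay below the control median. It fell by 0.24 ± 0.08 (adjusted p = 0.040), and by 0.34 ± 0.09 without the 8 libraries (adjusted p = 0.016). The call with all mice was near the threshold. It was lost in 12 of 27 fits that left out 1 mouse (adjusted p up to 0.089), namely control replicates 3, 6, 8, 9 and 13 and replicates 2, 3, 6, 8, 9, 10 and 11 at 15 mg/kg. It was also lost in 5 of 13 alternatives, with adjusted p up to 0.097.

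The higher cap genes were Psmd12, Psmd14, which removes ubiquitin from the substrate, and Psmd6. Psmd12 ran from 27.5 through 32.2 to 36.6 in control and from 32.6 through 40.8 to 54.2 at 15 mg/kg, with 10 of 13 mice above the highest control. It rose by 0.34 ± 0.06 (adjusted p = 0.00024), and by 0.21 ± 0.07 without the 8 libraries (adjusted p = 0.055). Psmd14 and Psmd6 rose by 0.31 ± 0.09 (adjusted p = 0.014) and 0.25 ± 0.07 (adjusted p = 0.0075). With the 8 libraries left out these were 0.10 (adjusted p = 0.53) and 0.14 (adjusted p = 0.32). The ATPase Psmc4 was called only without them, at 0.23 ± 0.07 (adjusted p = 0.047), against 0.01 with all mice.

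The ATPase Psmc1 was picked out after its values were seen, since it marked the libraries that stood apart within the control, 15 mg/kg and 150 mg/kg groups. The 6 such mice at 15 mg/kg ranged from 133 to 178, control replicate 1 was at 148 and replicate 10 at 150 mg/kg was at 175. All other control, 15 mg/kg and 150 mg/kg mice lay at or above 203. The 13 mice at 1.5 mg/kg, none of which stood apart, all lay below the control median. None of them lay below the lowest mouse at 150 mg/kg. Its difference at 15 mg/kg was -0.36 (adjusted p = 0.057), and 0.004 without the 8 libraries (adjusted p = 0.99). Psmc4, named above, was also picked out after its values were seen.

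Among the assembly chaperones, which build the rings and are absent from the finished particle, Psmg1 was higher and Psmd9 and Psmg3 were lower at 15 mg/kg. Psmd9, a chaperone of the ATPase ring, ran from 37.5 through 52.9 to 75.1 in control and from 17.7 through 39.2 to 52.9 at 15 mg/kg. All but 1 of the 13 mice lay below the control median. Psmd9 fell by 0.50 ± 0.11 (adjusted p = 0.0012), and by 0.42 ± 0.12 without the 8 libraries (adjusted p = 0.028). Psmg1, which pairs with Psmg2 to start the alpha ring, rose by 0.31 ± 0.10 (adjusted p = 0.026). Psmg3 fell by 0.32 ± 0.10 (adjusted p = 0.025), and reads could be split between it and Gm26938, whose exons overlap on the same strand. Psmg1 and Psmg3 stood at 0.14 and -0.13 without the 8 libraries and did not pass (adjusted p = 0.51 and 0.49).

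None of the 6 activator and inhibitor genes was called at any dose against control, among them Psme1 and Psme2, the interferon-induced PA28 cap. All 6 had differences at 15 mg/kg above 0, from 0.07 to 0.36, and the largest was Psme2 at 0.36 ± 0.13 (adjusted p = 0.059). Psme2 ran from 21.1 through 33.0 to 49.9 in control and from 22.4 through 45.8 to 80.0 at 15 mg/kg. The 6 libraries that stood apart ranged from 45.8 to 80.0 and the other 7 from 22.4 to 47.7, and without the 8 libraries the difference was 0.06 ± 0.13 (adjusted p = 0.86). Psme2b is a near-identical copy of Psme2, so the division of reads between the pair is uncertain. The 13 tested members not named by the rule, Psmc1, Psmc4 and 4 of the activators and inhibitors among them, were called at no dose against control with all mice. Their differences ran from -0.36 (Psmc1) to 0.25 (Psmc6) at 15 mg/kg, from -0.17 (Psmc6) to 0.23 (Psmd2) at 1.5 mg/kg and from -0.12 (Psmd7) to 0.20 (Psme4) at 150 mg/kg. The largest differences of roles not given above were also uncalled, with Psmc5 at 0.27 and Psmd4 at 0.24 at 1.5 mg/kg, Psmg2 at 0.34 at 15 mg/kg, and Psmc2 at 0.14, Psme2b at -0.29 and Psme3ip1 at -0.15 at 150 mg/kg.

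**Figure D3:**
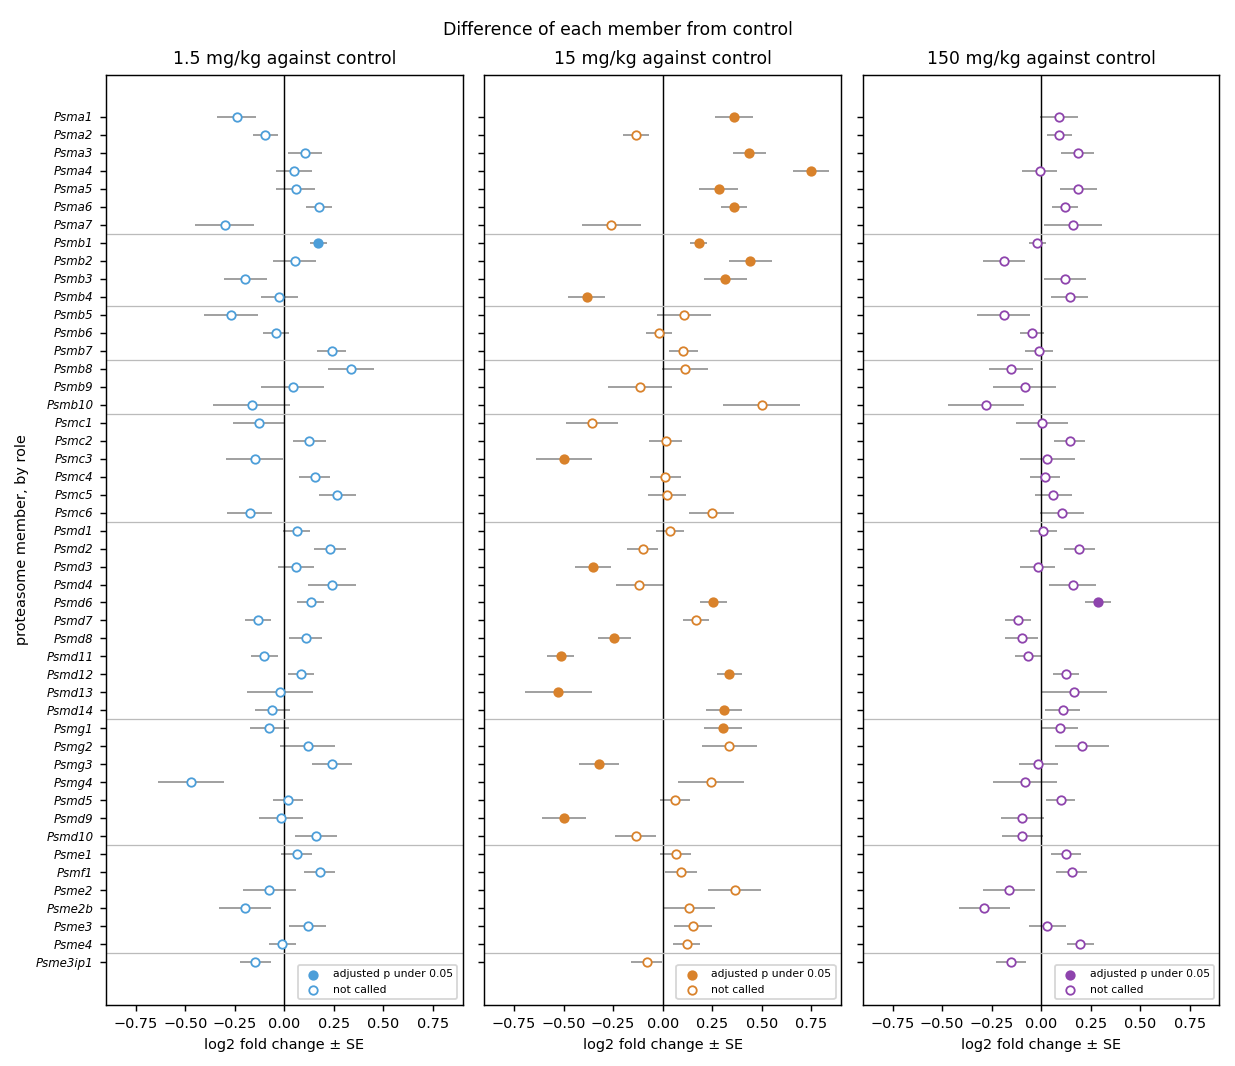
Each point is the log2 fold change of a tested member against control at 1.5, 15 or 150 mg/kg, with a bar for its SE and filled where the adjusted p was under 0.05. At 15 mg/kg 20 points are filled, with Psma4 farthest right at 0.75 and Psmd13 farthest left at -0.53, and 1 point is filled at each of the other doses.

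Under the rule that also asks for a log2 fold change beyond 0.5, 4 members passed at 15 mg/kg (8.33%, against 3.72% of all tested entries), namely Psma4, Psmd9, Psmd11 and Psmd13. Psmd9 lay just at this limit, at -0.5001. Without the 8 libraries these 4 members stood at 0.49, -0.42, -0.35 and -0.09, so each lay within 0.5. None passed at 1.5 mg/kg, where 0.367% of all entries did, or at 150 mg/kg, where 0.84% did.

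**Figure D4:**
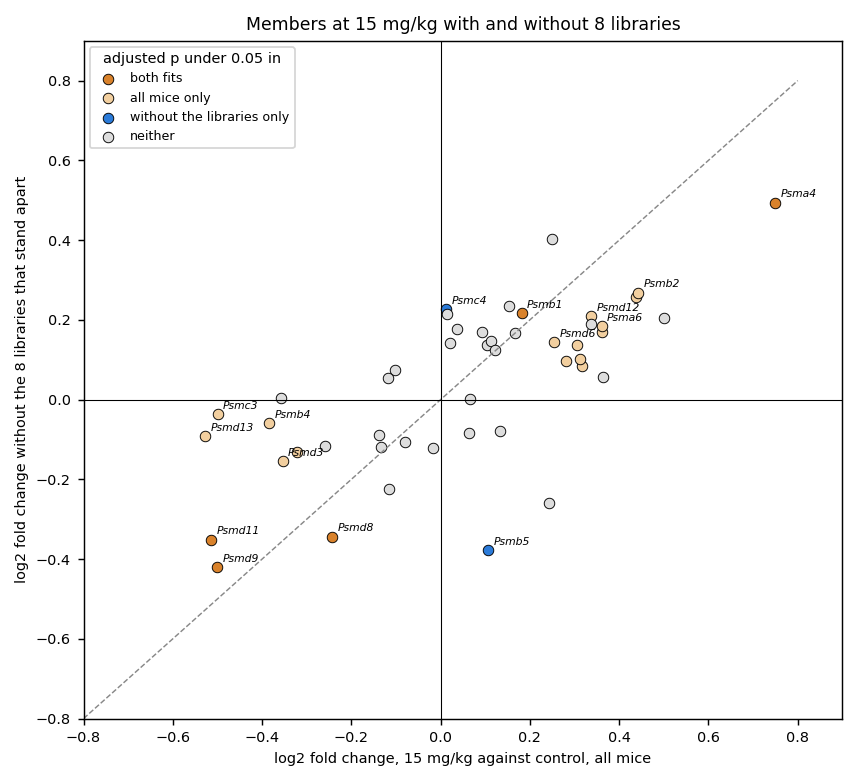
Each point is a tested member with its log2 fold change at 15 mg/kg against control in all mice (x axis) and without the 8 libraries that stood apart (y axis), and the dashed line marks equal values. Psma4, Psmb1, Psmd8, Psmd9 and Psmd11 pass in both, while Psmb5 goes from 0.11 to -0.38.

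At 1.5 mg/kg 1 member was higher (2.08%, against 0.674% of all tested entries) and none lower, where 0.525% of all entries were lower. It was Psmb1, at 0.17 ± 0.04 (adjusted p = 0.037). This call was lost in 12 of 27 fits that left out 1 mouse, at adjusted p up to 0.079, with the difference between 0.16 and 0.18 throughout. The mice in question were control replicates 3, 4, 5, 7, 8, 10 and 12 and replicates 2, 5, 6, 8 and 12 at 1.5 mg/kg. The member with the largest difference was the chaperone Psmg4, which ran from 35.6 through 41.4 to 75.9 in control and from 18.8 through 33.5 to 55.4 at 1.5 mg/kg. It stood at -0.47 ± 0.17 (adjusted p = 0.17), with 9 of 13 mice below the lowest control. Without the 8 libraries 4 members were called (8.33%, against 2.53% of all entries), with Psma6, Psmb1 and Psmb7 higher and Psmg4 lower at -0.41 ± 0.11 (adjusted p = 0.033).

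At 150 mg/kg 1 member was higher (2.08%, against 1.49% of all tested entries) and none lower, where 0.682% of all entries were lower. It was Psmd6, which ran from 53.5 through 60.1 to 79.1 in control and from 64.8 through 75.2 to 97.2 at 150 mg/kg, with all 14 mice above the control median. The difference was 0.29 ± 0.07 (adjusted p = 0.0092), and 0.27 ± 0.07 without the 8 libraries (adjusted p = 0.011), where again 1 member (2.08%) was called against 3.62% of all entries. With each sample scaled to the same total, which moved the median of all entries to -0.086, it was 0.20 (adjusted p = 0.089). These counts at the lowest and highest doses rest on 1 member each.

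Direct contrasts between doses share their groups with the comparisons above. At 15 against 150 mg/kg 11 members were higher and 11 lower (22.9% each), against 10.1% and 9.85% of all entries. The largest were Psmb10 at 0.78 ± 0.20 (adjusted p = 0.0029), which was 0.51 ± 0.22 and no longer called without the 8 libraries (adjusted p = 0.17), and Psma4 at 0.76 ± 0.09 (adjusted p = 3.8e-08). At 1.5 against 15 mg/kg 10 were higher and 15 lower (20.8% and 31.2%), against 10.5% and 10.9% of all entries. At 1.5 against 150 mg/kg 3 were higher and 1 lower (6.25% and 2.08%), against 2.06% and 2.55%. Without the 8 libraries the counts in these contrasts were 5, 8 and 9 in either direction. These were 10.4%, 16.7% and 18.8% of the members, against 8.32%, 5.05% and 6.88% of all entries. Psma4 and Psmd11 still differed between 15 and 150 mg/kg, at 0.51 ± 0.08 (adjusted p = 1.3e-05) and -0.30 ± 0.07 (adjusted p = 0.0040), and between 1.5 and 15 mg/kg, at -0.43 (adjusted p = 0.00049) and 0.26 (adjusted p = 0.023).

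None of the 6 catalytic genes was called at any dose against control with all mice. Psmb5, the chymotrypsin-like subunit, ran from 53.0 through 73.3 to 96.6 in control, from 50.1 through 60.9 to 85.9 at 1.5 mg/kg, from 44.8 through 64.3 to 144 at 15 mg/kg and from 47.0 through 61.7 to 102 at 150 mg/kg. The mice at 15 mg/kg fell into 2 ranges, since the 6 libraries that stood apart ran from 96.5 to 144 and the other 7 from 44.8 to 64.3. The highest mouse in control and at 150 mg/kg was also a library that stood apart. Psmb5 differed by 0.11 ± 0.14 at 15 mg/kg (adjusted p = 0.66) with all mice, and fell by 0.38 ± 0.09 without the 8 libraries (adjusted p = 0.0080), so its direction turned.

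Psmb6, the caspase-like subunit, kept within 204 to 263 in control, 176 to 264 at 1.5 mg/kg, 176 to 292 at 15 mg/kg and 194 to 232 at 150 mg/kg, and its differences were at most 0.05 in size. Psmb7, the trypsin-like subunit, had all 13 mice at 1.5 mg/kg above the control median of 93.8, with a difference of 0.24 ± 0.07 (adjusted p = 0.099), and without the 8 libraries it rose by 0.23 ± 0.06 (adjusted p = 0.026).

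Psmb8, which takes the place of Psmb5, ran from 14.1 through 19.7 to 27.4 in control, from 15.2 through 23.3 to 34.7 at 1.5 mg/kg, from 15.3 through 20.0 to 38.9 at 15 mg/kg and from 12.3 through 17.5 to 23.0 at 150 mg/kg. At 1.5 mg/kg 11 of 13 mice lay above the control median and 5 above the highest control. The difference from control was 0.34 ± 0.11 (adjusted p = 0.16), and that from 150 mg/kg was 0.49 ± 0.11 (adjusted p = 0.0067), or 0.45 ± 0.12 without the 8 libraries (adjusted p = 0.014). Psmb9, which takes the place of Psmb6, had group medians of 50.5, 59.5, 44.3 and 46.8 from control to 150 mg/kg, within overlapping ranges. Psmb10, which takes the place of Psmb7, ran from 10.1 through 13.0 to 22.9 in control and from 8.14 through 21.1 to 34.3 at 15 mg/kg, a difference of 0.50 ± 0.20 (adjusted p = 0.077), which was 0.20 ± 0.22 without the 8 libraries.

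The difference between each immunoproteasome gene and the constitutive gene it replaces was taken within each mouse. For Psmb8 minus Psmb5 the mean was -1.88 ± 0.40 (SD, n = 14) in control and -1.28 ± 0.37 (SD, n = 13) at 1.5 mg/kg. The mean shifted by 0.60 towards Psmb8 (2-sided permutation test of the group means, p = 0.00055, adjusted over 9 comparisons p = 0.0050). At this dose 12 of 13 mice lay above the control median. The ranges overlapped, from -2.54 to -0.93 in control and from -1.95 to -0.76 at 1.5 mg/kg. Without the 8 libraries the shift was 0.58 (permutation test, adjusted p = 0.0090). Neither Psmb8 nor Psmb5 was itself called at this dose, with fold changes of 0.34 and -0.27.

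At 15 mg/kg the same difference had a mean of -1.87 ± 0.70 (SD, n = 13), a shift of 0.007 (permutation test, adjusted p = 0.97), and a shift of 0.52 without the 8 libraries (permutation test, adjusted p = 0.066). At 150 mg/kg the shift was 0.04 (permutation test, adjusted p = 0.94). Psmb9 minus Psmb6 shifted by 0.08, -0.10 and -0.04 at the rising doses (permutation tests, adjusted p = 0.94 each). Psmb10 minus Psmb7 shifted by -0.40, 0.40 and -0.27 (permutation tests, adjusted p = 0.25, 0.25 and 0.42), and at 15 mg/kg by 0.07 without the 8 libraries. The 3 pairs thus did not move as 1 group, and a missed threshold does not show that the other pairs were equal. The summed leukocyte markers, which cover cells rich in immunoproteasome, ran from 15.8 to 72.6 in control and from 13.1 to 47.4 at 1.5 mg/kg, and none of the 6 tested leukocyte markers was called. Their part in the shift was not tested.

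**Figure D5:**
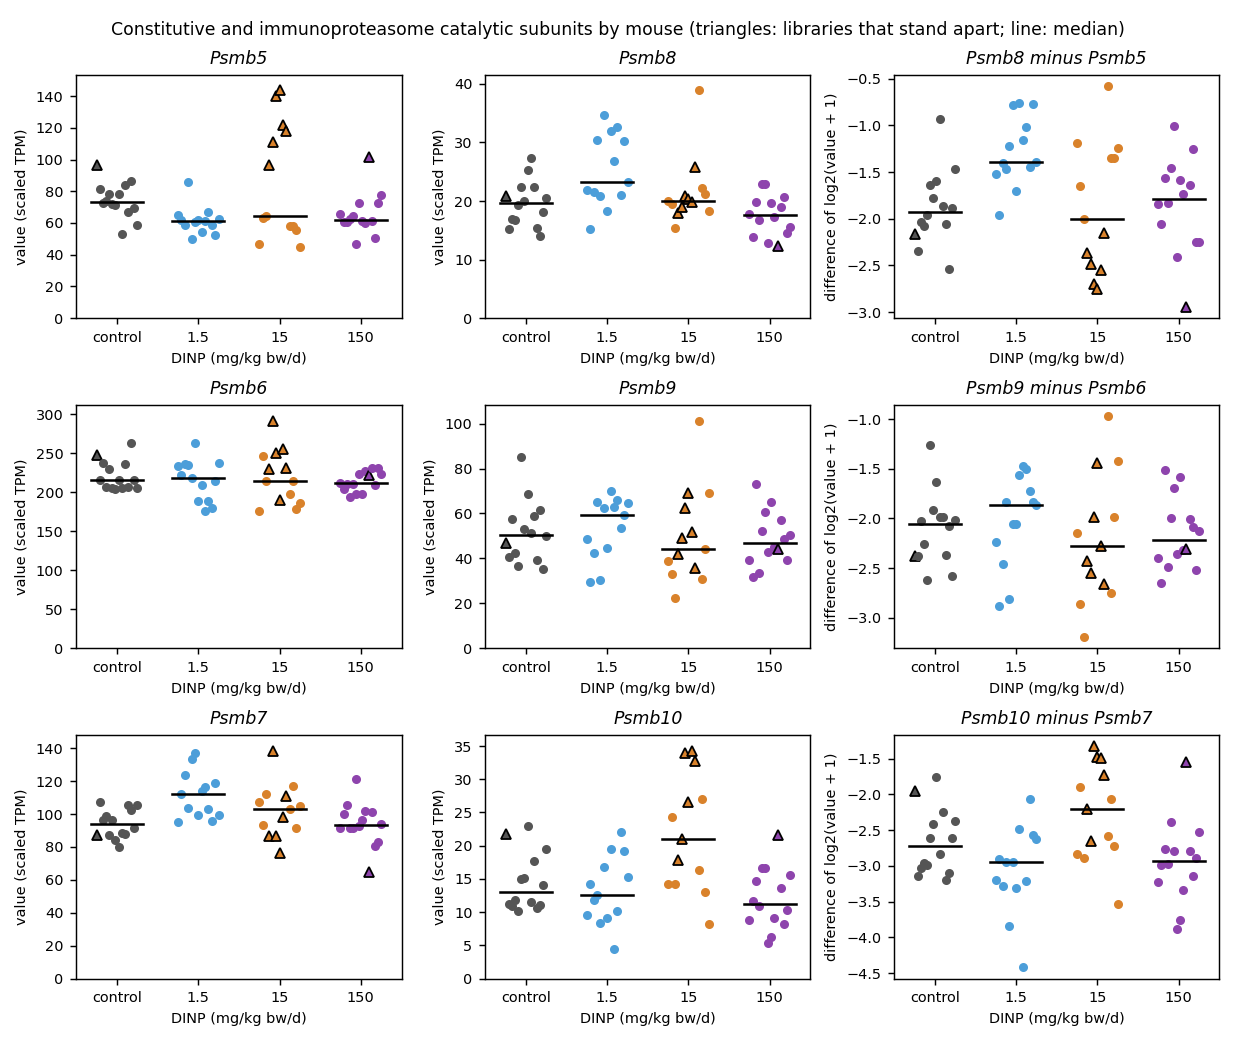
Rows pair each constitutive catalytic gene (left, scaled TPM) with the immunoproteasome gene that replaces it (middle, scaled TPM) and the difference of their log2(value + 1) within each mouse (right), by DINP dose, with a line at the median and triangles for the libraries that stood apart. For Psmb8 minus Psmb5 the 1.5 mg/kg mice lie at a median of -1.39 against -1.92 in control, and the triangles at 15 mg/kg lie below the other mice of that group and have its highest Psmb5 values.

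Psmb5 and Psmb6 held the core letters of the antioxidant response element, TGACNNNGC, which Nfe2l1 and Nfe2l2 bind, in the 250 bases before the start. No such match was found in the windows of Psmb8 and Psmb9. Psmb7, the remaining constitutive catalytic gene, and Psmb10 were also not among the 5 members with this match. The sequences (RefSeq, GRCm38.p6) are shown for Psmb5 and Psmb6, the only constitutive catalytic pair compared across mice, with the element in capitals. They lie at chr14:54618023-54618072 on the minus strand and chr11:70525318-70525356 on the plus strand. A link between the element and the values of these genes was not tested.
Psmb5: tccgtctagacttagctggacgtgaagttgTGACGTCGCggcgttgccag
Psmb6: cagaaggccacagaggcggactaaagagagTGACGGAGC

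Windows were found for 43 member names, Psmb11 included, which is not a table entry. In them TGACNNNGC was found on either strand in 5 (11.6%), against 11.5% of 27025 gene names. The ETS core CGGAAG was found in 20 (46.5%), against 15.3%. The core of the interferon-stimulated response element was found in 3 (6.98%, against 3.46%), the CCAAT box in 16 (37.2%, against 37.5%), the site of the factor NRF1 in 6 (14.0%, against 5.64%) and the cAMP element TGACGTCA in none (against 1.77%). Of members called higher at 15 mg/kg 7 of 10 with a window held CGGAAG, of those called lower 3 of 6 and of those not called 8 of 25. A match is a run of letters and was not tested for binding.

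Across the 46 libraries that did not stand apart, values were taken as deviations from the group means and p-values were adjusted over 6 pairs, of which 5 are given. Psmb8 and Psmb9, which lie close together in the major histocompatibility region of chromosome 17, rose and fell together (Pearson r = 0.68, Spearman rho = 0.63, permutation test, adjusted p = 3e-05, 0.56 without the 2 farthest mice). For Psmb8 with Ptprc, the pan-leukocyte gene, r was 0.47 and rho 0.43 (permutation test, adjusted p = 0.0019, 0.49 without the 2 farthest mice). Psmb5 with Psmb6 gave r = 0.44 and rho = 0.47 (permutation test, adjusted p = 0.0034, 0.41 without the 2 farthest mice). Within groups it ran from 0.14 at 1.5 mg/kg, where it was -0.03 without the 2 farthest mice, to 0.71 in control. For Psmb8 with Psmb10 r was 0.31 and rho 0.35 (permutation test, adjusted p = 0.046), and for Psmb8 with Psmb5 r was -0.21 and rho -0.19 (permutation test, adjusted p = 0.16).

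Within groups, all mice included, r of Psmb8 with Psmb9 was 0.41 in control, 0.82 at 1.5 mg/kg, 0.56 at 15 mg/kg and 0.62 at 150 mg/kg. The value at 15 mg/kg rested on a few mice, since it was -0.38 without the 2 farthest. Replicate 10 of that group had the highest Psmb8 and Psmb9 of all mice, at 38.9 and 101. For Psmb8 with Ptprc r ran from 0.06 at 15 mg/kg to 0.76 in control, so this relation was not seen in each group. Psmb8 with Psmb5 gave r = -0.75 at 150 mg/kg (permutation test, adjusted p = 0.0068, -0.61 without the 2 farthest mice) and r from -0.32 to 0.15 in the other groups.

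Genes that work beside the proteasome were counted in 4 lists. Of 12 other subunits and binding partners, 4 were higher and 1 lower at 15 mg/kg, with a list median of 0.05, where 7.57% of all tested entries were higher and 6.61% lower. With the 8 libraries left out 2 were higher and 1 lower, where 5.31% of all entries were called in either direction. Sem1, a small cap subunit outside the name rule, rose by 0.52 ± 0.08 (adjusted p = 2.3e-05), and by 0.30 ± 0.07 without the 8 libraries (adjusted p = 0.0099). Usp14 and Uchl5, deubiquitinases of the cap, rose by 0.25 ± 0.07 (adjusted p = 0.0091) and 0.37 ± 0.11 (adjusted p = 0.020). In the fit without them Uchl5 rose by 0.55 ± 0.11 (adjusted p = 0.0030), and Usp14 stood at 0.25 (adjusted p = 0.071). Akirin2, the lower gene, and Txnl1, the remaining higher one, lie outside the naming rule and are named after their values were seen. Pomp, the maturation factor of the core, stood at -0.12, -0.19 and -0.26 at the rising doses and was not called (adjusted p = 0.62, 0.14 and 0.087). Pomp fell by 0.25 at 150 mg/kg without the 8 libraries (adjusted p = 0.022) and stood at 0.04 at 15 mg/kg (adjusted p = 0.82).

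Of 17 genes for ubiquitin supply and delivery, 1 was higher and 3 lower at 15 mg/kg, with a list median of -0.13. Of all tested entries 7.57% were higher and 6.61% lower. Without the 8 libraries none of the 17 was higher and 2 were lower, where 5.31% of all entries were called in either direction. Bag6 fell by 0.48 ± 0.09 (adjusted p = 0.00020), and stood at -0.20 without the 8 libraries (adjusted p = 0.077). Ubqln2, which carries ubiquitinated proteins to the cap, rose by 0.40 ± 0.11 (adjusted p = 0.0071), and stood at 0.33 without them (adjusted p = 0.13). At 1.5 mg/kg Uba1, the main ubiquitin-activating enzyme, rose by 0.39 ± 0.08 (adjusted p = 0.0043) and was the only called gene of the 4 lists at that dose.

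None of the 9 tested genes of the Nfe2l1 pathway was called at any dose against control with all mice. Nfe2l1 itself had group medians of 63.5, 67.9, 57.0 and 79.2 from control to 150 mg/kg, and its difference at 150 mg/kg was 0.34 ± 0.10 (adjusted p = 0.056). Nfe2l1 rose by 0.36 ± 0.09 at 150 mg/kg without the 8 libraries (adjusted p = 0.014), and Ddi2, the protease that activates Nfe2l1, rose by 0.19 ± 0.05 (adjusted p = 0.022). Between doses Nfe2l1 was lower at 15 than at 150 mg/kg, at -0.47 ± 0.10 (adjusted p = 0.00076), or -0.29 without the 8 libraries (adjusted p = 0.081). Ddi2 was lower at 15 than at 150 mg/kg, at -0.29 ± 0.06 (adjusted p = 0.00011), or -0.21 without the 8 libraries (adjusted p = 0.021). Of 15 genes of interferon response and antigen presentation, 2 were higher and 2 lower at 15 mg/kg, against 7.57% and 6.61% of all tested entries. Without the 8 libraries 1 of the 15 was higher and none lower, where 5.31% of all entries were called in either direction. B2m, the light chain of class I molecules, and Erap1, a peptide-trimming enzyme, rose by 0.56 ± 0.17 (adjusted p = 0.016) and 0.34 ± 0.07 (adjusted p = 0.00026). The same genes stood at -0.03 (adjusted p = 0.90) and 0.30 ± 0.07 (adjusted p = 0.0095) without the 8 libraries, so only Erap1 kept its call. Tapbp, a chaperone of peptide loading, fell by 0.34 ± 0.08 (adjusted p = 0.0021), and Tap2, a peptide transporter subunit named after its values were seen, fell by 0.57 ± 0.18 (adjusted p = 0.028). These were -0.20 (adjusted p = 0.19) and -0.04 (adjusted p = 0.92) without the 8 libraries. Ptprc was not called, at -0.07, -0.20 and -0.22. No gene of the 4 lists was called at 150 mg/kg against control with all mice.

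The called members also differed in the base composition of their 3′ ends, which a 3′ library reads. The last 300 transcript bases had a median GC content of 41% in the 12 members higher at 15 mg/kg and 49.7% in the 8 lower ones, and 46.7% in the 28 not called. Over all tested entries the medians were 39%, 46.7% and 42.3%. In each library, deviations from the entry means were correlated with this content across entries. This correlation ran from -0.033 to 0.076 in control and from -0.120 to 0.041 at 15 mg/kg. Replicates 1, 2, 3 and 11 at 15 mg/kg, which did not stand apart, were at -0.110, -0.120, -0.095 and -0.116. Its part in the calls made without the 8 libraries was not tested. With each sample's trend on this content and on transcript length removed, Psma4, Psmd11 and Psmd9 kept their calls at 15 mg/kg, at 0.69, -0.55 and -0.47 (adjusted p = 1.7e-07, 1.4e-07 and 0.0027). That fit kept the 8 libraries, and no fit both removed the trend and left them out.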

How the data were processed

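RNA from 54 livers was made into 3′ libraries (QuantSeq) and, per the study's methods, processed by the authors with the nf-core/rnaseq pipeline (STAR, RSEM, Salmon, GRCm38). The deposited signal values are TPM that had been rounded to whole numbers and divided by a factor per sample. In every sample 100% of values were whole multiples of 1 step (tolerance 0.02), and they are not read counts, so no count test was used and depth is unknown. Precision therefore rests on the number of mice.

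Entries with a mean of at least 1 (11431 of 20162) were compared on log2(value + 1) with limma 3.58.1 in R 4.3.3, with 4 groups in 1 fit, moderated variances with a mean trend and Benjamini-Hochberg adjustment. Catalytic pairs and gene pairs were compared by permutation tests with 100000 resamples. Named members were the 6 catalytic genes, every member called at a dose against control, the largest difference of each role and dose, the untested members and up to 10 called companions, of which some are not reported here. The members and lists were chosen with earlier results of these data known. Motifs were chosen after the member values were seen. The fit was tested on simulated data with independent noise for each entry. Those data held no libraries that stood apart, so that test cannot show how such libraries affect the calls. Groups came from sample titles, and all sample columns were used. Gene positions and transcript sequences came from GENCODE M21, matching 96.1% of tested entries. The mice were separate animals, and no 2 columns were identical.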

Additional observations from a re-analysis of the deposited data

How the results depend on the processing

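The member counts depended on the scale, the test and 8 libraries. Shares of all entries called are given above for the main fit and the fit without the 8 libraries only. For the other alternatives, a change in count is therefore no measure of a change in the members alone. At 1.5 mg/kg against control the count of 1 became 0 with no filter, with each sample scaled to the same total and with a replicate block, 2 with array quality weights, 3 with the 2 groups alone and 4 without the 8 libraries. At 15 mg/kg the 20 became 11 with array quality weights, 13 with the 2 groups alone, 9 with the Wilcoxon test and 7 without the 8 libraries. At 150 mg/kg the 1 became 0 when scaled to the same total. At 15 against 150 mg/kg the 22 became 13 with weights, 9 with the Wilcoxon test and 5 without the 8 libraries. At 1.5 against 15 mg/kg the 25 became 13 with the Wilcoxon test and 8 without the 8 libraries. At 1.5 against 150 mg/kg the 4 became 2 with no filter and 9 without the 8 libraries. Leaving out 1 mouse gave 0 to 1, 15 to 22, 1 to 1, 17 to 24, 20 to 29 and 2 to 6 members in these 6 contrasts in the order of the design (1.5, 15 and 150 mg/kg against control, then 15 against 150, 1.5 against 15 and 1.5 against 150). The 2 of 1.5 against 150 mg/kg came without replicate 3, 5, 8 or 9 at 1.5 mg/kg. The cause was not tested.

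Directions of uncalled members at 15 mg/kg turned for Psmb5 with array quality weights (-0.079) and, without the 8 libraries, for Psmb5 (-0.38), Psmd4 (0.054), Psme2b (-0.078) and Psmg4 (-0.26), and for Psme3ip1 with the GC and length trend removed (0.020). Sign changes of uncalled members by no more than 1 SE are not in this list, and at 15 mg/kg they were seen for Psmb6, Psmc2 and Psmc5. With 1 mouse left out, calls at 15 mg/kg were lost in 14 of 27 fits for Psma5, 12 for Psmb3, 12 for Psmd8, 4 for Psmd13, 3 for Psmg1 and 2 for Psmg3. The alternatives without the 8 libraries, with the GC trend removed and for the catalytic pairs were chosen after seeing the data. Psma4, Psmd9 and Psmd11 stayed called at 15 mg/kg in all 13 alternatives and with any 1 mouse left out, with differences of 0.49 to 0.81, -0.55 to -0.41 and -0.57 to -0.35. The shift of Psmb8 minus Psmb5 at 1.5 mg/kg was 0.54 to 0.62 in 5 alternatives and 0.55 to 0.68 with any 1 mouse left out, with adjusted p up to 0.010 (permutation test). Same-numbered mice of different groups did not deviate together (mean correlation -0.0025 over 79 pairs), so the replicate block pairs nothing, and it changed no other count by over 1.5 times.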
